A study of Ovis aries with 36 samples.

Results

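The operated infraspinatus muscle of sheep given nandrolone for 22 weeks was set against that of sheep given it for 6 weeks. The members are the 6 libraries titled END, without END-CC, of the arms N22W and N6W, 3 animals in each, out of 36 libraries in the series. In both arms the infraspinatus tendon was released and reattached 16 weeks later, and END is the biopsy of the operated muscle 6 weeks after reattachment. N22W animals received 150 mg of nandrolone decanoate weekly from tendon release on, so for 22 weeks at END, and N6W animals received the same weekly dose from reattachment on, so for 6 weeks. CONTROL animals had the same operations without the drug. All were female Swiss Alpine sheep aged 2 years, with a labelled body weight of 47.1 ± 0.8 kg in N22W, 48.4 ± 1.5 kg in N6W and 45.3 ± 1.9 kg in CONTROL (the kind of error is not given in the labels). The design text gives each arm 6 animals, and the libraries used here come from 3 in each. Start and total duration of treatment change together between the arms and cannot be told apart. Both arms were still under the drug at END.

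The infraspinatus is a muscle of the rotator cuff, which stabilises and turns the shoulder joint. When its tendon is detached the muscle retracts, loses fibre mass and takes up fat and connective tissue, and reattachment alone is known to restore it poorly. Nandrolone is an anabolic steroid that binds the androgen receptor, a transcription factor activated by its ligand, and the decanoate is an ester released slowly from the injection site. Whether treatment from the time of release leaves the repaired muscle in another state than treatment from the time of repair is the question that this pair of arms addresses.

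The 6 libraries held 14507589 to 34878807 reads, as recovered from the deposited values, and 15938 to 17356 of the 25197 genes lay above 0. Neither reads (two-sided exact permutation p = 0.9) nor genes above 0 (exact permutation p = 0.7) separated the arms. All END and END-CC libraries belong to 24 libraries that appear to have been scaled together, since the geometric mean of their size factors is 1.00. The PRE and TR libraries of N22W, taken before release and at repair, form a second such set of 12 with those of CONTROL, so levels of N22W before END are not set against those of N6W. The values printed are read numbers after division by each library's size factor, and differences are on the log2(value + 1) scale. Genes carry Ensembl identifiers that could not be paired with names, so their functions are not given, and the labelled muscle could not be checked against marker genes. In whole tissue, fewer cells of a type and less RNA per cell cannot be told apart.

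One library stood apart from the others of its arm. The END library of N6W animal 2909 differed from the other END libraries of its arm by a root mean square of 0.78 (2907) and 0.88 (2908) on the log2 scale over the 12756 genes with a mean value of at least 10 in the 6 libraries. Animals 2907 and 2908 differed from each other by 0.60. The END library of 2909 lay 0.58 from that of N22W animal 2913. On the first principal component over the 18 END and END-CC libraries (34.2% of the variance) the END library of 2909 lay at −62.8, against 2.86 and 9.93 for 2907 and 2908. The END libraries of N22W lay at −42.2, −31.3 and −16.6 and those of CONTROL at −41.7, −23.1 and −28.9. Thus 2909 lay on one side of these and 2907 and 2908 on the other. The END-CC libraries, from the muscle of the other side, lay there at 31.6 for 2909, against 39.5 and 30.5. The main counts between the arms at END are given with and without this animal, as are limma's counts at END-CC.

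No gene passed limma's test between the arms in the operated muscle. Limma called 0 of the 16417 genes tested at an adjusted p under 0.05, 0% in either direction, on all 9 END libraries. The smallest adjusted p was 0.206. At an unadjusted p under 0.05 there were 1051 genes (6.4%), 619 with higher values in N22W (3.77%) and 432 with lower ones (2.63%). EdgeR on the recovered reads called 0 genes as well (1075 at an unadjusted p under 0.05), and DESeq2 called 10, of which 3 lay higher and 7 lower in N22W. Without animal 2909 limma called 0 genes, with 2567 at an unadjusted p under 0.05, and edgeR 0, with 2408. DESeq2 without 2909 called 454 genes, 63 higher and 391 lower in N22W, so its count moved when that animal was left out. No other animal was left out in DESeq2 or edgeR, so these counts have no comparison. Animal 2909 was left out because it lay apart, and this choice lowers the spread within N6W. Each arm was also set against the same CONTROL libraries at END, where limma called 0 genes for both. For N22W, 824 genes (5.02%) had an unadjusted p under 0.05, 349 higher (2.13%) and 475 lower (2.89%) than CONTROL. For N6W it was 1308 genes (7.97%), 583 higher (3.55%) and 725 lower (4.42%), and without 2909 limma called 3 genes, with 2815 at an unadjusted p under 0.05.

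The arms did not form separate groups at END. The 3 pairs of N22W libraries differed by 0.53, 0.53 and 0.58, the 3 pairs of N6W libraries by 0.60, 0.78 and 0.88, and the 9 pairs across the arms by 0.52 to 0.72 with a median of 0.68. The closest of these 15 pairs lay across the arms, between N22W animal 2915 and N6W animal 2907. Without 2909, all other pairs across the arms differed by 0.63 to 0.72, more than any pair within an arm (0.53 to 0.60). The highest distance within N22W was below the lowest within N6W. The median SD of a gene between the 3 animals was 0.20 in N22W and 0.30 in N6W at END (CONTROL 0.22), and the SD was larger in N6W for 67.7% of the genes. At END-CC the median SD was 0.22 in both arms, and it was larger in N6W for 50.9% of the genes. Without 2909 the median SD of the 2 other N6W animals at END was 0.17, and it was larger in N6W for 44.3% of the genes at END and 38.6% at END-CC. By this measure N6W was not the more variable arm without 2909, although the SD of 2 animals has a lower median than that of 3.

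**Figure D1:**
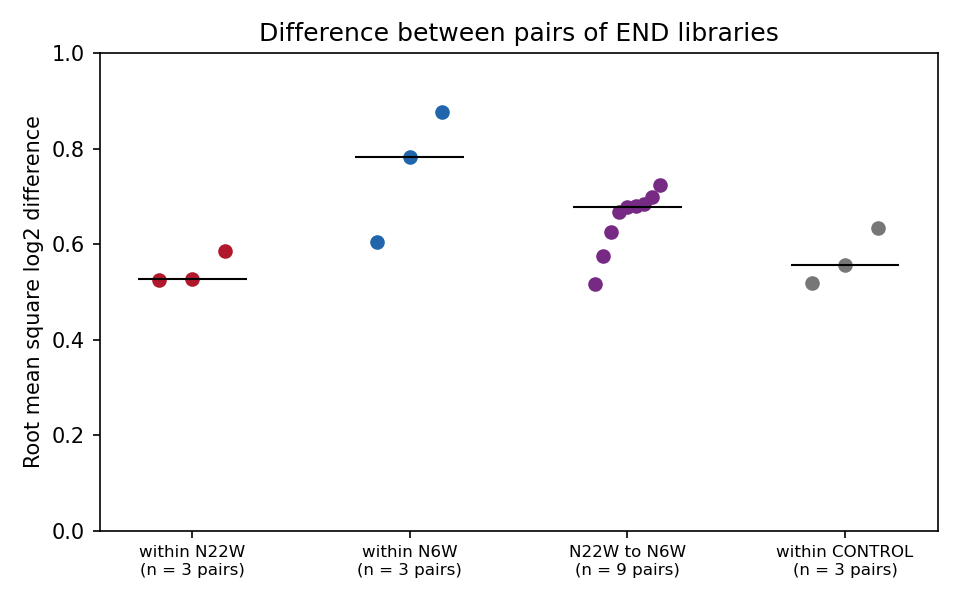
Root mean square log2 difference (vertical axis) over 12756 genes for each pair of END libraries, within N22W, within N6W, between these arms and within CONTROL; points are pairs and lines are medians. The 9 pairs across the arms, from 0.52 to 0.72, overlap the pairs within N22W and those within N6W.

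The gene with the smallest p was ENSOARG00000001985, which was low in N22W. Its values were 17.5, 16.7 and 38.8 in N22W, against 175, 126 and 125 in N6W, with 24.9, 31.5 and 24.4 in CONTROL. The groups N22W and N6W did not overlap, N6W was the arm that lay away from CONTROL, and N22W averaged 24.3 ± 12.5 and N6W 142 ± 28.6 (SD, n = 3 each). The log2 difference was −2.59 (SE 0.33, limma adjusted p = 0.206) and did not pass. It passed in DESeq2 (adjusted p = 6.76e-08), in limma with the animal as a random effect over END and END-CC (adjusted p = 0.0304) and without N22W animal 2915 (−2.97, adjusted p = 0.0237). Over 20 alternative settings it ran from −2.97 to −2.38, with adjusted p values up to 0.881. The other side showed the same order, with 70.6, 33.6 and 91.5 at END-CC in N22W, against 303, 191 and 207 in N6W (log2 difference −1.91, SE 0.38, limma adjusted p = 0.462). Before any drug, N6W animals had 89.9, 96.5 and 116 at PRE and 179, 36.7 and 84.9 at TR. All but the TR value of 2908 lay above the N22W values at END.

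ENSOARG00000006659 was the other low gene named by rank of p. It had 258, 283 and 233 in N22W, against 507, 614 and 447 in N6W and 447, 493 and 380 in CONTROL at END. Here the arms did not overlap and N22W lay away from both others (log2 difference from N6W −1.01, SE 0.16, limma adjusted p = 0.582, DESeq2 adjusted p = 0.000341, up to 0.999 over 20 settings). The difference was as large on the other side, where N22W had 300, 222 and 191 and N6W 401, 635 and 407 (log2 difference −1.01, SE 0.21, limma adjusted p = 0.462). At PRE, before any drug, N22W animals had 289, 307 and 216 and CONTROL animals 574, 491 and 582. These groups share a scaling and did not overlap, so N22W animals lay below CONTROL in this gene before treatment.

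Among genes with higher values in N22W, ENSOARG00000024494 had the smallest p. Values at END were 6184, 5923 and 5933 in N22W, against 3375, 2639 and 3871 in N6W and 6152, 5522 and 5410 in CONTROL. N6W lay below both other arms without overlap (N22W minus N6W 0.89, SE 0.16, limma adjusted p = 0.582, DESeq2 adjusted p = 0.00042, up to 0.999 over 20 settings). At END-CC the arms overlapped, with 4941, 4076 and 3277 in N22W, against 2835, 2573 and 3646 in N6W. The log2 difference there was 0.44 (SE 0.19, limma adjusted p = 0.547). Before any drug, N6W animals had 3759, 4040 and 2342 at PRE and 3501, 5046 and 4387 at TR. Each N6W animal was lower at END than at TR, and the END values lay within the span of the PRE values.

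ENSOARG00000012756 was at 0 in all 3 N6W libraries and in all 3 CONTROL libraries at END. In N22W it had 3.89, 7.69 and 3.14, which stand for 4, 6 and 6 reads. With 3 reads over the N6W group as the limit that a count of 0 allows, this is at least 4.92-fold higher in N22W (counting error alone). It had the lower level of 1.28, 0.821 and 0.888 at END-CC in N22W and was at 0 there in N6W. Single N6W animals had up to 0.899 at PRE and up to 1.19 at TR, and every CONTROL animal had 0.828 to 2.72 at these times. The limma adjusted p at END was 0.582. Among all 25197 genes it was the 1 gene at 0 in every N6W library and with at least 3 reads in every N22W library at END, and 0 genes showed the opposite pattern. At END-CC 0 genes did so in either direction.

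**Figure D2:**
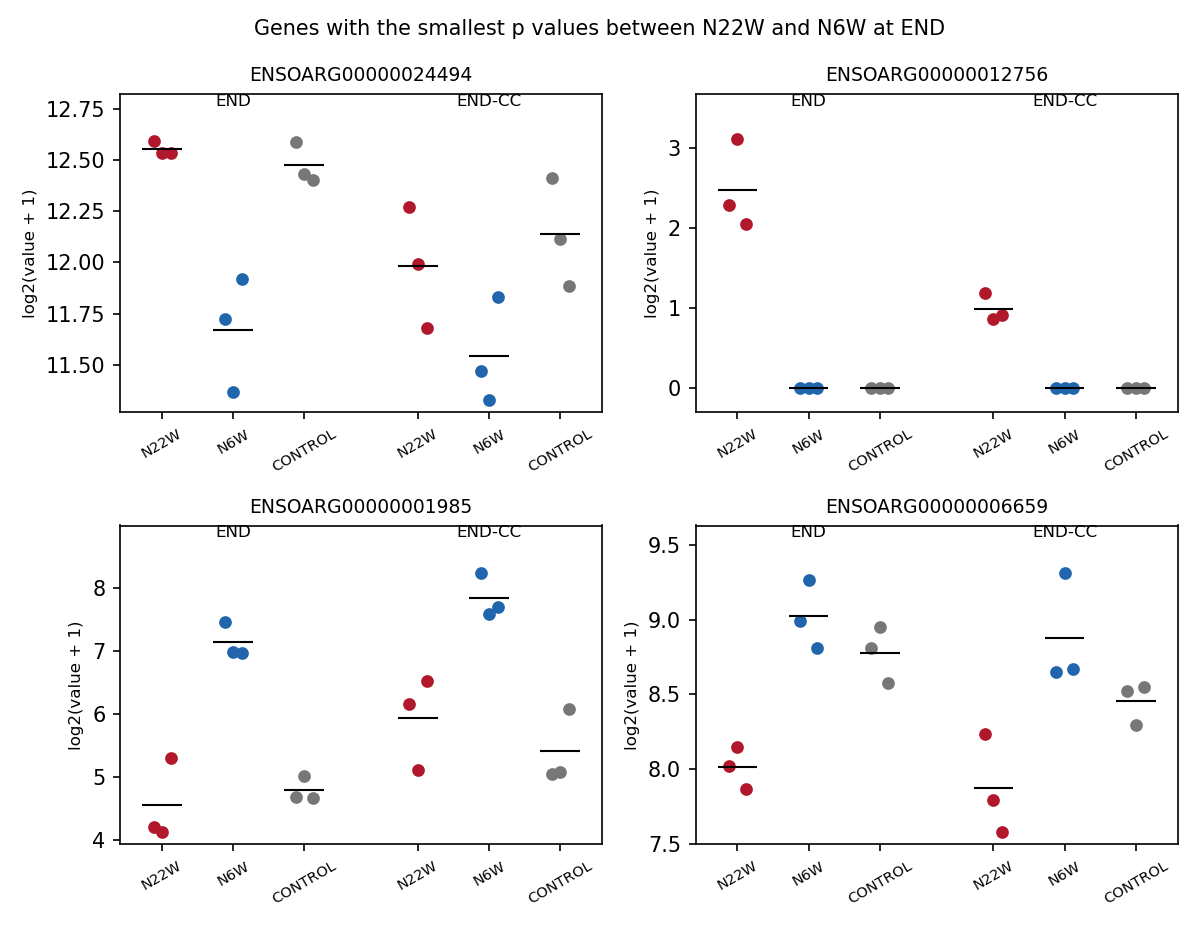
Values on the log2(value + 1) scale (vertical axes, which do not all start at 0) of the 2 genes with the smallest p in each direction between N22W and N6W at END, 4 in all, by arm in the operated muscle (END) and the other side (END-CC). Points are animals and lines are means of 3. N22W and N6W do not overlap in any of the 4 at END.

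With all animals, differences of at least 2-fold without overlap were few and not more frequent than on the other side. Of the 12756 genes with a mean value of at least 10, 946 (7.42%) had all 3 N22W animals above all 3 N6W animals at END, and 616 (4.83%) had them all below. At END-CC this held for 891 (7.19%) and 934 (7.54%) of 12388 genes. With a difference of at least 2-fold as well, 91 genes were left at END (0.713%), of which 38 (0.298%) lay higher and 53 (0.415%) lower in N22W. At END-CC, in the same animals, 111 genes (0.896%) met the same rule, 75 higher (0.605%) and 36 lower (0.291%). Leaving out N6W animal 2909 raised the count at END to 366 genes, 235 higher and 131 lower in N22W. Without N22W animal 2915 it was 293, without N6W animal 2908 206, without N6W animal 2907 177 and without N22W animal 2913 176. Without N22W animal 2914 it was 115. With 2 animals in an arm, fewer values have to lie apart. With other processing of all animals the count at END ran from 62 (a pseudocount of 5) to 117 (scaling to the total). Counts by this rule at END-CC with an animal left out or with other processing are not given.

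The genes chosen in this way at END had mostly the same sign in the other muscle of the same animals. Of the 38 higher genes 36 also lay higher in N22W at END-CC, with a median log2 difference of 0.75 there and 1.24 at END. Of the 53 lower genes 46 also lay lower at END-CC, with a median of −0.50 there and −1.26 at END. Without 2909 in either muscle it was 200 of 235 higher and 123 of 131 lower genes. Over all 12756 genes the sign was shared by 68.5% (72.8% without 2909), and the Pearson correlation of both differences across genes was 0.50, where the points share the animals. By the full rule 6 of the 38 were also among the 75 genes of END-CC, 15.8% of the first list and 8% of the second. For the lower genes it was 10, which is 18.9% of the 53 and 27.8% of the 36.

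**Figure D3:**
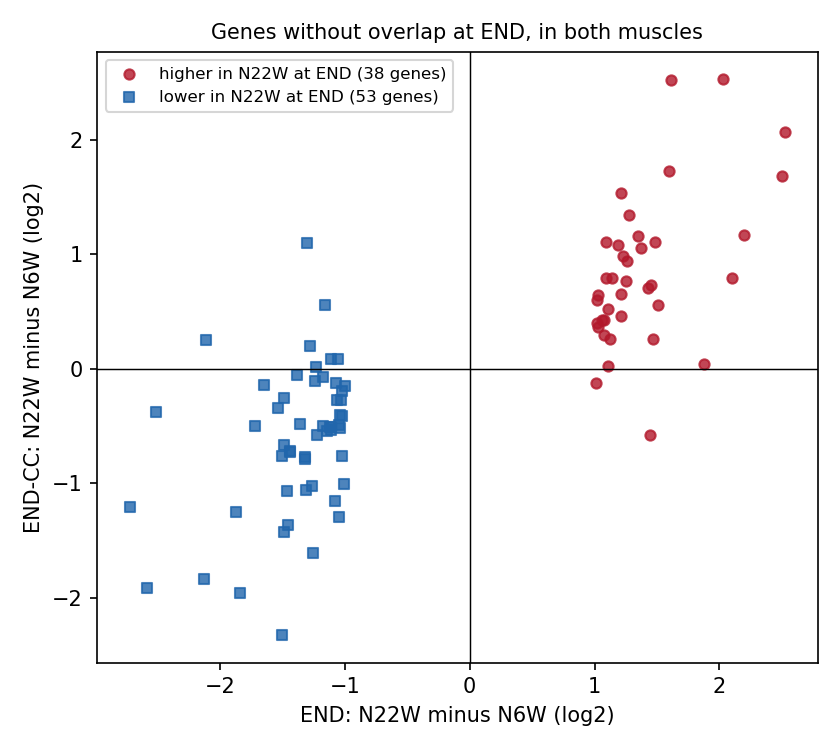
Log2 difference of N22W minus N6W at END (horizontal axis) and at END-CC (vertical axis) for the 91 genes whose animals did not overlap at END by at least 2-fold. Circles are the 38 genes higher and squares the 53 genes lower in N22W at END. The horizontal positions follow from the choice, and 36 circles and 46 squares lie on the same side of 0 at END-CC.

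CONTROL and earlier biopsies place these genes further. Among the 38 higher genes the CONTROL mean at END was nearer to N22W in 29 and nearer to N6W in 9. Among the 53 lower genes it was nearer to N22W in 19 and to N6W in 34, while over all 12756 genes it was nearer to N6W in 43.6%. In 19 of the 38 higher genes all 3 N6W libraries from before release lay below all 3 N22W libraries at END, against 16.4% of all genes. In 24 of the 53 lower genes they lay above them, against 16.8% of all genes. In N6W animals the median log2 value of END minus PRE was −0.46 in the higher genes and 0.39 in the lower ones. Choosing genes by their N6W values at END favours such a change. Choosing them by their N22W values at END likewise favours earlier N6W libraries lying outside those values. The shares of all genes, which were not chosen, therefore do not show whether the arms differed in these genes before the drug. Of the 53 lower genes, 5 (9.43%) were among those that rose over release in CONTROL and 4 (7.55%) among those that fell, against 2.04% and 1.61% of all 12756 genes. Of the 38 higher genes 0 were in either list.

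The most abundant gene, ENSOARG00000017195, took a larger part of the reads in N22W. It held 34.3, 35.4 and 35.7% of the summed values in N22W, against 31.7, 28.5 and 27.6% in N6W and 25.5, 31.8 and 29.8% in CONTROL. N22W and N6W did not overlap, with means of 35.1 ± 0.747% and 29.3 ± 2.15% (SD, n = 3 each). The two-sided exact permutation test gave p = 0.1, the smallest value that 3 against 3 animals allow. On the scale of the deposited values the arms did overlap, with 5924000, 6584000 and 6518000 in N22W and 6408000, 5729000 and 3965000 in N6W. At END-CC the shares overlapped too, with 34.0, 33.4 and 29.9% in N22W and 30.3, 30.5 and 27.5% in N6W.

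The direction of the differences moved with abundance, in both muscles. The 3661 genes with a mean value under 10 had a median log2 difference of 0.14 at END and 0.18 at END-CC. For the 114 genes above 10000 it was −0.15 at END and −0.28 at END-CC. The classes from 10 to 100, from 100 to 1000 and from 1000 to 10000 held 4964, 6362 and 1316 genes, with medians of 0.05, 0.02 and −0.05 at END. Of the 619 genes with higher values in N22W at an unadjusted p under 0.05, 147 lay in the lowest class, against 50 of the 432 with lower values. This class held 3661 of the 16417 genes tested. The share among the higher genes was thus close to that of all genes, and the share among the lower genes was smaller.

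Genes that changed over tendon release without the drug were read in both arms at END, and limma called none of them between the arms. From PRE to TR in CONTROL, 282 genes rose in limma's test (1.72%) and 211 fell (1.29%), 3% of those tested, with median log2 changes of 1.65 and −0.77. None of these libraries or animals belongs to N22W or N6W, which entered through the estimate of the spread alone. At END, N22W minus N6W had a median log2 value of −0.05 in the genes that rose and −0.12 in those that fell, against 0.03 over all genes. At an unadjusted p under 0.05, 9 of the 282 genes that rose lay higher (3.19%) and 12 lower (4.26%) in N22W. Of the 211 that fell, 3 lay higher (1.42%) and 13 lower (6.16%), against 3.77% higher and 2.63% lower over all genes. The lists depend on single animals, with 10 and 6 genes without 2901, 2 and 1 without 2902 and 7 and 3 without 2903. Through the spread they also moved to 495 and 522 genes without 2907, 194 and 94 without 2908, 573 and 646 without 2909 and 211 and 112 without 2915.

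A release score was formed for each library as the mean log2 level of the genes that rose minus that of the genes that fell. At END it was −1.43, −1.64 and −1.63 in N22W, against −1.88 (2907), −2.60 (2908) and −0.55 (2909) in N6W and −1.10, −1.25 and −1.59 in CONTROL. The 3 N22W animals lay close together, inside the span of N6W, and the means were −1.57 ± 0.12 in N22W and −1.68 ± 1.04 in N6W (SD, n = 3 each). On the other side the scores were −2.18, −2.94 and −2.91 in N22W, against −3.01, −3.01 and −3.13 in N6W. The operated muscle exceeded the other side by 0.75, 1.29 and 1.28 in N22W, against 1.13, 0.41 and 2.58 in N6W and 1.75, 1.49 and 1.71 in CONTROL. Thus both the smallest and the largest distance between the muscles of an animal belonged to N6W. Every N22W animal lay below every CONTROL animal, as did N6W animals 2907 and 2908. The genes of the score were chosen by their change in these same CONTROL animals. That choice favours a large distance in CONTROL, so this order is no independent result. Without 2909 the difference of N22W minus N6W at END was 0.71, and without 2908 it was −0.35, against 0.11 with all animals.

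**Figure D4:**
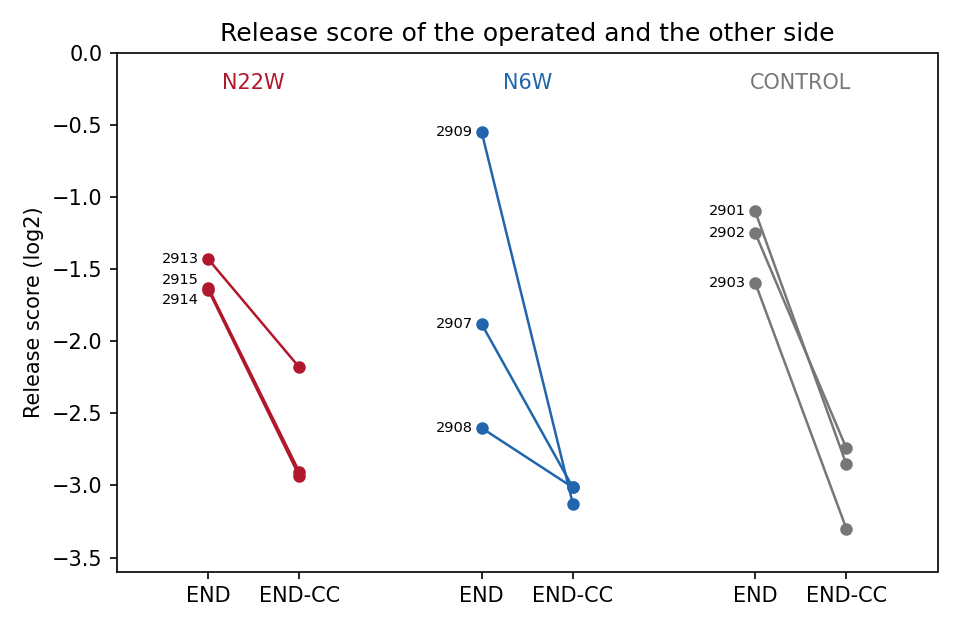
Release score on the log2 scale (vertical axis) of each animal in the operated muscle (END) and on the other side (END-CC), with a line per animal, for N22W, N6W and CONTROL. At END the N22W animals lie between −1.64 and −1.43 and the N6W animals between −2.60 and −0.55.

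The same spread appeared without the lists of release genes. Of the 12756 genes, 567 (2913), 784 (2914) and 499 (2915) lay at least 2-fold higher at END than at END-CC in the N22W animals, which is 4.44, 6.15 and 3.91%. In the N6W animals it was 583 (2907), 424 (2908) and 1739 (2909), which is 4.57, 3.32 and 13.6%. In CONTROL it was 1060, 816 and 1355 genes, or 8.31, 6.4 and 10.6%. At least 2-fold lower were 240, 178 and 117 genes in N22W (1.88, 1.4 and 0.917%), against 108, 199 and 661 in N6W (0.847, 1.56 and 5.18%) and 413, 202 and 190 in CONTROL (3.24, 1.58 and 1.49%). Animal 2909 had the highest counts of all 9 animals in both directions, and the other 5 treated animals had fewer genes at least 2-fold higher than any CONTROL animal. The 12756 genes were chosen by their mean value over the 6 END libraries of N22W and N6W. That choice favours genes higher at END in these animals, and a gene could enter through a single animal such as 2909. The excess of higher over lower genes in treated animals is therefore no independent result.

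**Figure D5:**
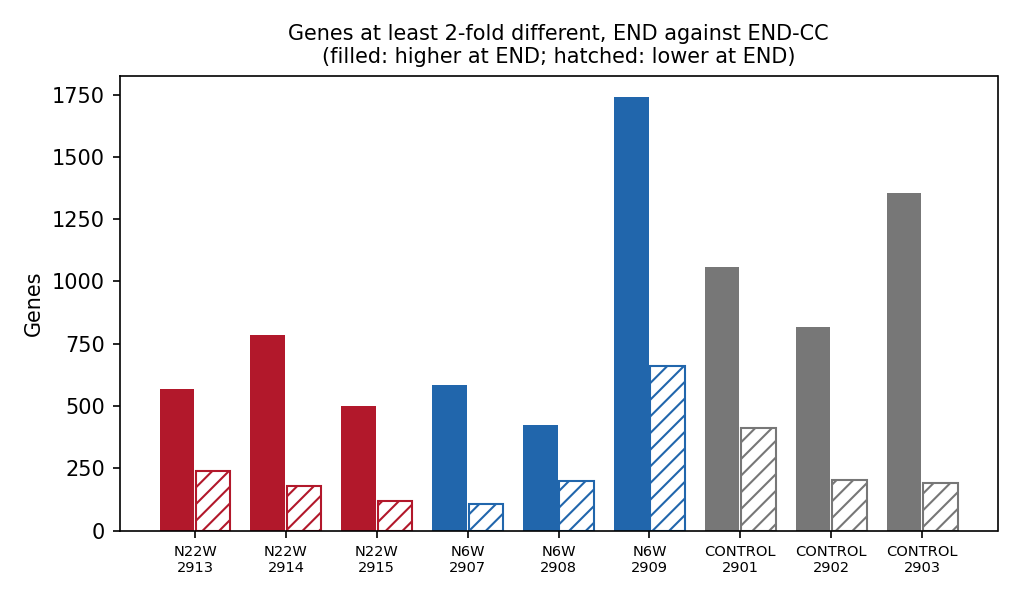
Number of genes (vertical axis), of 12756, at least 2-fold higher (filled bars) or lower (hatched bars) at END than at END-CC in each animal, by arm. N6W animal 2909 has 1739 and 661, and the 3 N22W animals have 499 to 784 and 117 to 240.

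Whether the arms differed in the operated muscle by another amount than on the other side was tested with the animal as a block. Limma called 0 of 16417 genes (0%), with a smallest adjusted p of 0.907 and 684 genes (4.17%) at an unadjusted p under 0.05, 335 with a positive (2.04%) and 349 with a negative difference (2.13%). EdgeR called 0 genes (590 at an unadjusted p under 0.05) and DESeq2 called 7. The arms were also compared at END-CC alone, where limma called 0 genes (0%), edgeR 0 and DESeq2 34. Unadjusted p values under 0.05 were given to 1456 genes (8.87%) by limma, 698 higher (4.25%) and 758 lower (4.62%) in N22W, and to 1337 by edgeR. Without 2909 limma called 0 genes in both comparisons. It then gave an unadjusted p under 0.05 to 1351 genes at END-CC and to 1090 in the difference, against 2567 at END. By this count END had fewer genes than END-CC with all animals and more without 2909.

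Of the genes ranked first in the test of the difference, ENSOARG00000017875 had 143, 98.7 and 109 at END in N22W, against 236, 207 and 461 in N6W. At END-CC it had 132, 79.6 and 130 in N22W and 80.02, 100 and 112 in N6W. The operated muscle thus exceeded the other side by 1.54 (log2) in N6W, where every animal was higher at END, and by 0.06 in N22W. The difference of these changes was −1.48 (SE 0.27, limma adjusted p = 0.907, DESeq2 adjusted p = 0.0292, up to 1.00 over 20 settings). ENSOARG00000014877 had 143, 167 and 162 at END in N22W, against 324, 203 and 348 in N6W, and lay lower at END than at END-CC in the 3 N22W animals and higher in the 3 N6W animals (difference −1.17, SE 0.23, limma adjusted p = 0.974).

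In the opposite direction ENSOARG00000020285 had 284, 313 and 321 at END in N22W, against 152, 220 and 294 in N6W, and 185, 174 and 181 at END-CC in N22W, against 172, 214 and 311 in N6W. Every N22W animal was higher in the operated muscle, by a mean of 0.76 (log2), while N6W averaged −0.07 (difference 0.83, SE 0.14, limma adjusted p = 0.907). ENSOARG00000008724 had a mean log2 value of END minus END-CC of 0.24 in N22W and −0.76 in N6W (difference 1.00, SE 0.18, limma adjusted p = 0.907). Its END-CC values in N6W ran from 152 to 725, a wider span than the 167 to 255 of N22W.

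The 4 genes picked earlier from these animals for another release change under nandrolone were read at END as well. ENSOARG00000003424 had 11.7, 19.2 and 13.1 in N22W, against 64.0, 27.4 and 33.8 in N6W and 101, 214 and 60.7 in CONTROL. N22W lay below both others without overlap, CONTROL averaged highest, and N22W minus N6W was −1.38 (log2, SE 0.46, limma adjusted p = 0.757). At END-CC it was −0.06, with overlapping values.

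For ENSOARG00000007090 the arms overlapped at END, with 123, 64.1 and 113 in N22W, against 211, 86.2 and 123 in N6W, all below the CONTROL values of 461, 675 and 351. For ENSOARG00000008705 they overlapped too, with 356, 283 and 206 in N22W, against 151, 297 and 219 in N6W and 116, 107 and 177 in CONTROL. ENSOARG00000009832 had 25.3, 26.9 and 25.2 in N22W, against 29.5, 38.3 and 29.2 in N6W, without overlap and above the CONTROL values of 19.9, 15.2 and 11.9. Its log2 difference between N22W and N6W was −0.30 (SE 0.28, limma adjusted p = 0.86). The 4 genes had been picked on these animals, so their order against CONTROL is no independent result.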

How the data were processed

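Total RNA libraries were made with a stranded kit after depletion of ribosomal RNA with probes for human RNA, per the labels' protocols. Per the submitters' processing notes, which give no roles, the build Oar_v3.1 and the tools STAR 2.3.0e and R 3.0.2 were used. The sources used here do not give how reads were counted or on which annotation. A deposited value is a signal per gene, in whole steps of 1 value per library (100% of values up to 100 steps within 0.1 of a whole number), read here as reads divided by a size factor. Of the 25197 identifiers 0 matched the 35057 entries of the name table.

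The scaling of the authors was kept. Limma 3.58.1 (R 4.3.3) with a mean-dependent prior was fitted to log2(value + 1) of 16417 genes, those whose median over all 36 libraries reached 0.5, with Benjamini-Hochberg adjustment over these genes. END and END-CC used their 9 libraries each, with CONTROL in the estimate of the spread, and the difference between the sides used all 18 with the animal as a block. EdgeR 4.0.16 and DESeq2 1.42.0 used the recovered reads, without CONTROL animal 2903 where END-CC entered, since its step near 1 left no check of the recovery. The release genes come from the 18 PRE and TR libraries with the animal as a block. Animal numbers pair END with END-CC by design. Deviations from the group means correlated within every animal (r 0.30 to 0.48). Libraries of an arm differed by a chi-square of 19.6 to 148 per gene, far above the value near 1 of copies.

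Named genes are the 2 with the smallest p in each direction at END and in the difference between the sides, the most abundant gene and 4 genes of earlier work. Scripts were tested on simulated data. The members and lists were chosen with earlier results of these data known.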

Additional observations from a re-analysis of the deposited data

Results flagged for a closer look

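For a pair of named genes, END minus END-CC had one sign in every N22W animal and the other sign in every N6W animal, although limma's test of the difference was not passed (adjusted p = 0.907 for ENSOARG00000008724 and 0.974 for ENSOARG00000014877). ENSOARG00000008724 was higher at END than at END-CC by 0.26, 0.38 and 0.08 (log2) in the 3 N22W animals and lower in the 3 N6W animals, at −0.49, −0.66 and −1.11, a difference of 1.00. ENSOARG00000014877 was lower at END by −0.57, −0.30 and −0.18 in N22W and higher by 1.16, 0.56 and 0.73 in N6W, a difference of −1.17. Of the 12756 genes with a mean value of at least 10, 223 (1.75%) showed such opposite signs, 147 with all N22W animals higher at END and 76 with all lower. Both genes had been picked for a small p in the same contrast, though neither had the smallest in its direction. That choice favours such a pattern, so it is no independent result. The other named genes of this contrast did not show it.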

How the results depend on the processing

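A p that misses the threshold does not show that the arms were equal. Counts of called genes stayed at 0 in limma with TMM scaling, scaling to the total, a pseudocount of 0.5 or 5, a median filter of 10, no filter and only the libraries compared, for END, END-CC and the difference between the sides. They also did with the filter of 0.5 on the libraries of the fit, an alternative added after the data were seen. EdgeR gave 0 as well, and DESeq2 gave 10 genes at END (454 without 2909, where edgeR gave 0, both added after the data were seen), 34 at END-CC and 7 for the difference. With the replicate block as a random effect 1 gene was called at END and 0 at END-CC, and without the replicate block the difference gave 0. Leaving out single animals gave 0 to 1 gene in limma for each of the 3 comparisons, the single calls coming without 2915 (END), 2902 (END-CC) and 2908 (difference). Non-overlapping genes at END numbered 91, and 115 to 366 with an N22W or N6W animal left out. CONTROL animals do not enter this rule. Other processing gave 62 (a pseudocount of 5) to 117 (scaling to the total). The release score difference was 0.11 with a pooled SD between animals of 0.74. It was −0.42 with no filter (from 3 and 2 genes), 0.57 with scaling to the total and −0.35 to 0.73 with an animal left out, so its sign was not stable. The SD moved too, to 0.17 with no filter and 0.27 without 2909, where the difference was 0.71. Scaling to the total moved the median of all genes to 0.20 at END-CC, against 0.03 with the authors' scaling. The causes were not tested. No named gene changed sign in any alternative, and 6 of 258 alternative values passed where the main value did not. Several alternatives, such as another filter or a CONTROL animal left out, could not alter the log2 difference of a gene in limma. Most named genes were also picked for a small p in these contrasts, which favours a stable sign. The lack of sign changes is therefore no independent result.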
